A study of Homo sapiens with 18 samples.

Results

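SIX2, EMX2 and TFAP2C are genes for developmental transcription factors, and their expression was described in 6 lines of HEK cells, an established human embryonic kidney cell line. The 3 genes were picked by their symbols, with differences between the lines already known from earlier results of these data. Their levels and their differences between lines are therefore given as a description, with no test. All 3 had a probe set, 1 each, among 14884 genes with a symbol, and all 3 were among the 9686 genes bright enough to be tested. The wild-type lines were the parental HEK cells and the CRISPR control clones N4 and N8. The lines labelled ATXN1L-KO were the clones A10, A30 and B21, made by CRISPR editing of ATXN1L, which encodes a partner of the repressor CIC. Each line was measured on 3 arrays, 18 in all, from cultures described as biological triplicates. The labels give CRISPR treatment, puromycin selection and isolation of single colonies for every sample, the parental cells included, so what the parental cells went through is not settled by them. Apart from the parental cells, each line is thus 1 colony, and a difference between lines can be a difference between colonies. The sources used here do not give the edited part of ATXN1L, so the knockout label was not checked. Replicate 1 of A10 weighs on results for that line, since 814 genes passed a test against the wild-type lines with all arrays, 1142 without that array, and 327 and 329 without replicate 2 and replicate 3 of A10.

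SIX2 encodes a homeobox factor that keeps the progenitors of the nephron, the filtering unit of the kidney, from differentiating in the cap mesenchyme of the embryo. EMX2 encodes a homeobox factor needed for the urogenital tract, where it acts in the ureteric bud, and for patterning of the cerebral cortex. TFAP2C encodes AP-2 gamma, a member of a family of factors that bind GC-rich palindromes, with known roles in trophoblast, germ cells and epithelia such as that of the breast. CIC binds short AT-rich octamers and represses genes, among them the ETS factors ETV4 and ETV5.

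The promoters of SIX2 and EMX2 are shown to place these genes among all promoters by a few short motifs, as a description that bears on no difference between the lines. They come from a set of promoters of RefSeq genes on GRCh38.p14. The set used here held 2 of the 3 genes and had no entry for TFAP2C. Each promoter runs from 250 bases before to 50 bases after the start of the gene. That of SIX2 lies at chr2:45009403-45009702 on the minus strand, and that of EMX2 at chr10:117542496-117542795 on the plus strand. Capitals mark each match to the motifs searched on both strands, the 4 CIC octamers (TGAATGAA, TGAATGGA, TCAATGAA and TCAATGGA), the homeodomain core TAATTA, the AP-2 palindrome GCCNNNGGC and the CCAAT box.
SIX2: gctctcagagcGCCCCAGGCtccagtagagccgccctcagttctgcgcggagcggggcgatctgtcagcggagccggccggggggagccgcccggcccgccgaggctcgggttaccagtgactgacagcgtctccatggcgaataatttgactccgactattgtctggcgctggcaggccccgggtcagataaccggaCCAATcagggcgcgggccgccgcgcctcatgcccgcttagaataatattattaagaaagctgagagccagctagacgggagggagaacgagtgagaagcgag
EMX2: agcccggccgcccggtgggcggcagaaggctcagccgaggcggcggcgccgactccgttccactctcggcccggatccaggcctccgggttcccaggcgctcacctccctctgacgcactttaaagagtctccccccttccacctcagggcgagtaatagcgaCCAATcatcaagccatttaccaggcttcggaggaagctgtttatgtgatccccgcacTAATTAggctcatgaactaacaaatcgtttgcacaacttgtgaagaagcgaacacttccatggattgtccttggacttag
None of the 4 CIC octamers was in either window, and 2.52% of the 10789 promoters of tested genes held at least 1 of them. The SIX2 window held 1 AP-2 palindrome, at bases 12 to 20, where 31.7% of those promoters held it, and 1 CCAAT box at bases 199 to 203. The EMX2 window held TAATTA at bases 221 to 226, found in 2.09% of those promoters, and a CCAAT box at bases 164 to 168. The CCAAT box was in 34.7% of them. The motifs searched did not overlap in these windows. Bases counted as G or C made up 64% of the SIX2 and 58% of the EMX2 window.

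TFAP2C was the gene of the set with the widest range, higher in all 3 lines labelled ATXN1L-KO and most of all in A30 and B21. All levels are probe-set signals on the log2 scale. In the parental cells the 3 arrays read 7.40, 7.17 and 7.31, in N4 7.14, 7.05 and 7.22, and in N8 7.40, 7.14 and 7.34. In A10 they read 7.42, 7.67 and 7.69, in A30 8.33, 8.28 and 8.35, and in B21 8.02, 8.05 and 8.22. Every array of the lines labelled ATXN1L-KO was above every wild-type array, although replicate 1 of A10, at 7.42, was only just above the highest wild-type value of 7.40. Of all tested genes, 0.299% had arrays that did not overlap in this direction, a share that is given as background only, since this contrast helped to choose the gene. The line means ran from 7.14 ± 0.09 in N4 (SD, n = 3 arrays) through 7.29 ± 0.12 in the parental cells, 7.29 ± 0.14 in N8, 7.59 ± 0.15 in A10 and 8.10 ± 0.11 in B21 to 8.32 ± 0.04 in A30. The parental cells and N8 had the same mean, and N4 lay below both by slightly more than the SD of the arrays. The steps from N8 to A10, A10 to B21 and B21 to A30 were each larger than the SD of the arrays in either line.

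As line means, TFAP2C was at 8.0 ± 0.37 in the lines labelled ATXN1L-KO and 7.24 ± 0.09 in the wild-type lines (SD, n = 3 lines). The difference in TFAP2C was 0.76 ± 0.17 (limma SE), a 1.7-fold higher signal. Against the wild-type lines TFAP2C was higher by 0.35 ± 0.08 for A10 (1.28-fold), 1.08 ± 0.08 for A30 (2.11-fold) and 0.86 ± 0.08 for B21 (1.81-fold). These comparisons share the wild-type arrays. Without the A10 line the difference was 0.97, and without A30 it was 0.60. Without replicate 1 of A10 the A10 difference was 0.44. The control clone N4 differed from the parental cells by −0.16 ± 0.09 and N8 by 0.00 ± 0.09. The range of the 6 line means was 1.18 for TFAP2C, against a median range of 0.33 over all tested genes. A range smaller than that of TFAP2C was found for 98.5% of tested genes.

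SIX2 lay lower in each line labelled ATXN1L-KO, by a small amount. Its arrays read 6.65, 6.82 and 6.43 in the parental cells, 6.52, 6.59 and 6.75 in N4, and 6.53, 6.44 and 6.62 in N8. They read 6.44, 6.37 and 6.37 in A10, 6.23, 6.41 and 6.30 in A30, and 6.41, 6.35 and 6.31 in B21. The wild-type arrays ran from 6.43 to 6.82 and the others from 6.23 to 6.44, so the groups met at their edges. Replicate 1 of A10 was the 1 array of the lines labelled ATXN1L-KO within the wild-type range. From the lowest, the line means were 6.31 ± 0.09 in A30, 6.36 ± 0.05 in B21, 6.39 ± 0.04 in A10, 6.53 ± 0.09 in N8, 6.62 ± 0.12 in N4 and 6.63 ± 0.20 in the parental cells (SD, n = 3 arrays). Neighbours in this order differed by no more than the larger of their SDs, apart from A10 and N8, which were farther apart than that. The groups stood at 6.35 ± 0.04 and 6.59 ± 0.06 (SD, n = 3 lines), a difference of −0.24 ± 0.08 (limma SE), or a 1.18-fold lower signal. Clone by clone it was −0.20 ± 0.07 (A10), −0.28 ± 0.07 (A30) and −0.24 ± 0.07 (B21), against −0.01 ± 0.09 in N4 and −0.10 ± 0.09 in N8 relative to the parental cells. The N8 value was −0.01 without parental replicate 2 and −0.20, the size of the A10 difference, without parental replicate 3. The range of line means was 0.32, near the median of 0.33 over all tested genes.

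EMX2 had a range of line means of 0.32 as well, and its groups overlapped. Its arrays read 6.83, 6.66 and 6.74 in the parental cells, 6.67, 6.70 and 6.50 in N4, and 6.88, 6.69 and 6.73 in N8. They read 6.40, 6.35 and 6.60 in A10, 6.49, 6.62 and 6.62 in A30, and 6.44, 6.70 and 6.72 in B21. Of the 9 arrays of the lines labelled ATXN1L-KO, 5 lay within the wild-type range of 6.50 to 6.88, and the lowest values were in A10. From the lowest, the line means were 6.45 ± 0.13 in A10, 6.58 ± 0.08 in A30, 6.62 ± 0.16 in B21, 6.62 ± 0.11 in N4, 6.74 ± 0.09 in the parental cells and 6.77 ± 0.10 in N8 (SD, n = 3 arrays). B21 and N4, the neighbours on either side of the genotype label, had means that round to the same value. The group means were 6.55 ± 0.09 and 6.71 ± 0.08 (SD, n = 3 lines), with a difference of −0.16 ± 0.09 (limma SE). Clone by clone it was −0.26 ± 0.08 (A10), −0.13 ± 0.08 (A30) and −0.09 ± 0.08 (B21). Without replicate 1 of B21 the B21 difference was 0.00. The difference between the groups kept its sign with any single array or line left out. N4, a wild-type clone, differed from the parental cells by −0.12 ± 0.09, a size like that of A30.

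**Figure D1:**
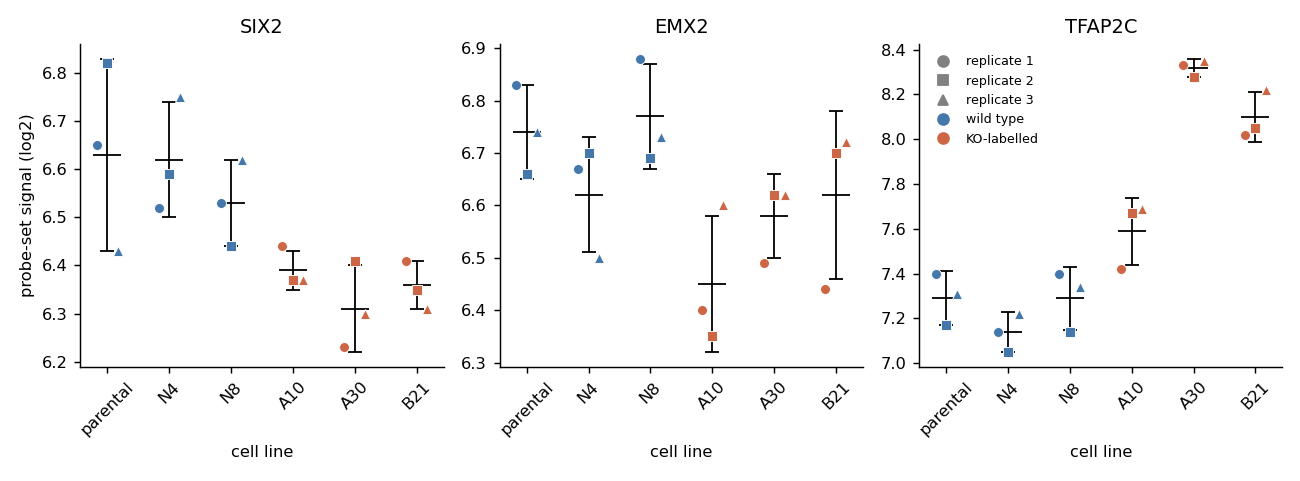
Probe-set signals (log2) of SIX2, EMX2 and TFAP2C in the 6 cell lines, with 1 point per array, a shape for each replicate number, blue for wild-type and red for KO-labelled lines, and bars for the mean ± SD of 3 arrays. The TFAP2C arrays of A30 and B21 lie between 8.02 and 8.35, above the wild-type arrays at 7.05 to 7.40, while the EMX2 groups overlap. Each vertical axis has its own scale and does not start at 0.

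By line means, SIX2 and EMX2 were among 7.20% of tested genes whose 3 lines labelled ATXN1L-KO all lay below all 3 wild-type lines, for EMX2 only by a margin between B21 and N4 that rounds to 0.00. TFAP2C was among 7.35% with all 3 above. These shares describe the contrast that helped to choose the genes, and nothing is read from them. In bulk RNA, a lower signal can come from fewer cells that express a gene or from less RNA in each cell, and these cannot be told apart here. With limma on line means, 0 of the 9686 genes passed an adjusted p of 0.05 (0.00%), against 937 (9.67%) at an unadjusted p under 0.05. The count was 43 with the replicate number as a block, 75 with arrays in place of line means and each line as a random block, and 72 without the A10 line.

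Replicate 1 was set against the other replicates in a fit that held each line apart, a contrast that did not choose the genes and was therefore tested. Of the 3 genes 0 passed in limma, and 0 had an unadjusted p under 0.05, where 18.6% of tested genes passed, 8.56% higher and 10.0% lower. The difference was −0.02 ± 0.06 for SIX2 (limma adjusted p = 0.866), −0.02 ± 0.06 for EMX2 (limma adjusted p = 0.861) and −0.01 ± 0.06 for TFAP2C (limma adjusted p = 0.953). For EMX2 this average joined opposite movements, since replicate 1 was the highest array of the parental cells and N8 but the lowest of A30 and B21.

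Within each replicate number, the gap in EMX2 between the genotype labels therefore varied. In replicate 1 EMX2 was at 6.44 ± 0.05 in the lines labelled ATXN1L-KO and 6.79 ± 0.11 in the wild-type lines (SD, n = 3 lines), a difference of −0.35 with no overlap. In replicate 2 the difference was −0.13 and in replicate 3 it was −0.01, where both groups stood at 6.65 ± 0.06 and 6.66 ± 0.14. The EMX2 difference was −0.07 over replicates 2 and 3 together. SIX2 differed by −0.21, −0.24 and −0.27 in replicates 1, 2 and 3. Its groups did not overlap in any of them, but in replicate 2 they came as close as 6.41 and 6.44. TFAP2C differed by 0.61, 0.88 and 0.80, also with no overlap, though in replicate 1 only by 7.42 against 7.40. The share of all tested genes without overlap in a single replicate was not counted, so nothing is read from it. Whether the EMX2 difference changed between replicates was not tested.

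**Figure D2:**
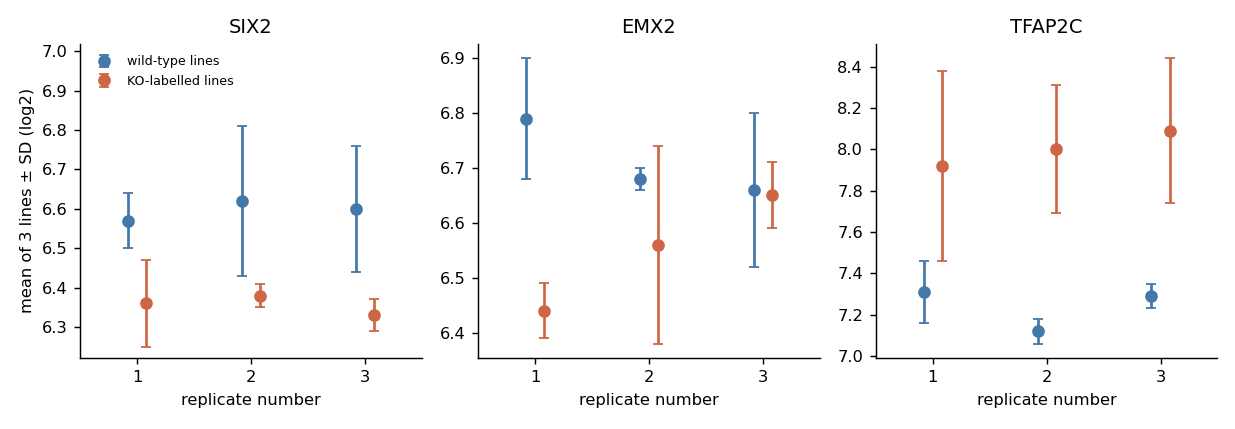
Mean ± SD over 3 lines (log2) of SIX2, EMX2 and TFAP2C in each replicate number, in wild-type (blue) and KO-labelled (red) lines. The means of the groups are apart in every replicate for SIX2 and TFAP2C, while those of EMX2 go from 0.35 apart in replicate 1 to 0.01 apart in replicate 3. The bars of TFAP2C come close in replicate 1. Each vertical axis has its own scale and does not start at 0.

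Each gene was also set beside the 40 tested genes nearest to it on its chromosome. TFAP2C lies on chromosome 20, and the median difference of its neighbours from the wild-type lines was 0.05 for A10, 0.24 for A30 and 0.09 for B21. In A30, 36 of the 40 were higher and 18 passed (background 29.3%), and 0 of them differed by as much in either direction as TFAP2C in A30 or in B21. In A10, 1 of them did. The nearest tested genes were RTF2, a replication fork protein gene, which rose by 0.39 in A30 (limma adjusted p = 0.001), and BMP7, a growth factor gene of the kidney, which differed by 0.13 (limma adjusted p = 0.156). With the median level of the neighbours in each line subtracted, TFAP2C differed by 0.30 (A10), 0.87 (A30) and 0.76 (B21).

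The neighbours of SIX2, on chromosome 2, had a median difference of −0.02 (A10), −0.12 (A30) and 0.11 (B21). In B21 35 of 40 were higher while SIX2 was lower. SIX3, the homeobox gene next to SIX2, differed by −0.17, −0.12 and 0.07 in the same order and passed in none of them (limma adjusted p = 0.221, 0.293 and 0.598). On the other side SRBD1, which encodes an RNA-binding protein, fell by 0.47 in A30 (limma adjusted p = 0.000152) and differed by 0.02 and 0.12 in A10 and B21. The neighbours of SIX2 were also higher in the wild-type clone N8, with a median of 0.16 and 35 of 40 higher than in the parental cells. Centred on its neighbours, SIX2 differed by −0.17 (A10), −0.18 (A30) and −0.35 (B21) from the wild-type lines. In the same way N8 differed from the parental cells by −0.29, against −0.10 uncentred, so a wild-type clone then differed from its reference by more than A10 and A30 did from theirs.

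EMX2, on chromosome 10, had neighbours with a median difference of −0.10 (A10), −0.03 (A30) and −0.01 (B21). In A10, 34 of the 40 were lower, and 6 differed in either direction by at least as much as EMX2. Centred on them, EMX2 differed by −0.12 in A10. EMX2OS, an antisense transcript gene that overlaps EMX2 in RefSeq, stood at 6.17, 5.90 and 6.08 in the parental cells, N4 and N8 and at 5.79, 5.82 and 5.77 in A10, A30 and B21. It differed by −0.26 between the genotype labels (limma adjusted p = 0.468), −0.26 (A10), −0.23 (A30) and −0.28 (B21), and passed in none of these. The sources used here do not give the strand of the probes, so signal of EMX2 and EMX2OS may not be wholly separate. RAB11FIP2, the nearest tested gene on the other side, encodes a regulator of endosome recycling and fell by 0.21 in A10 (limma adjusted p = 0.0325).

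**Figure D3:**
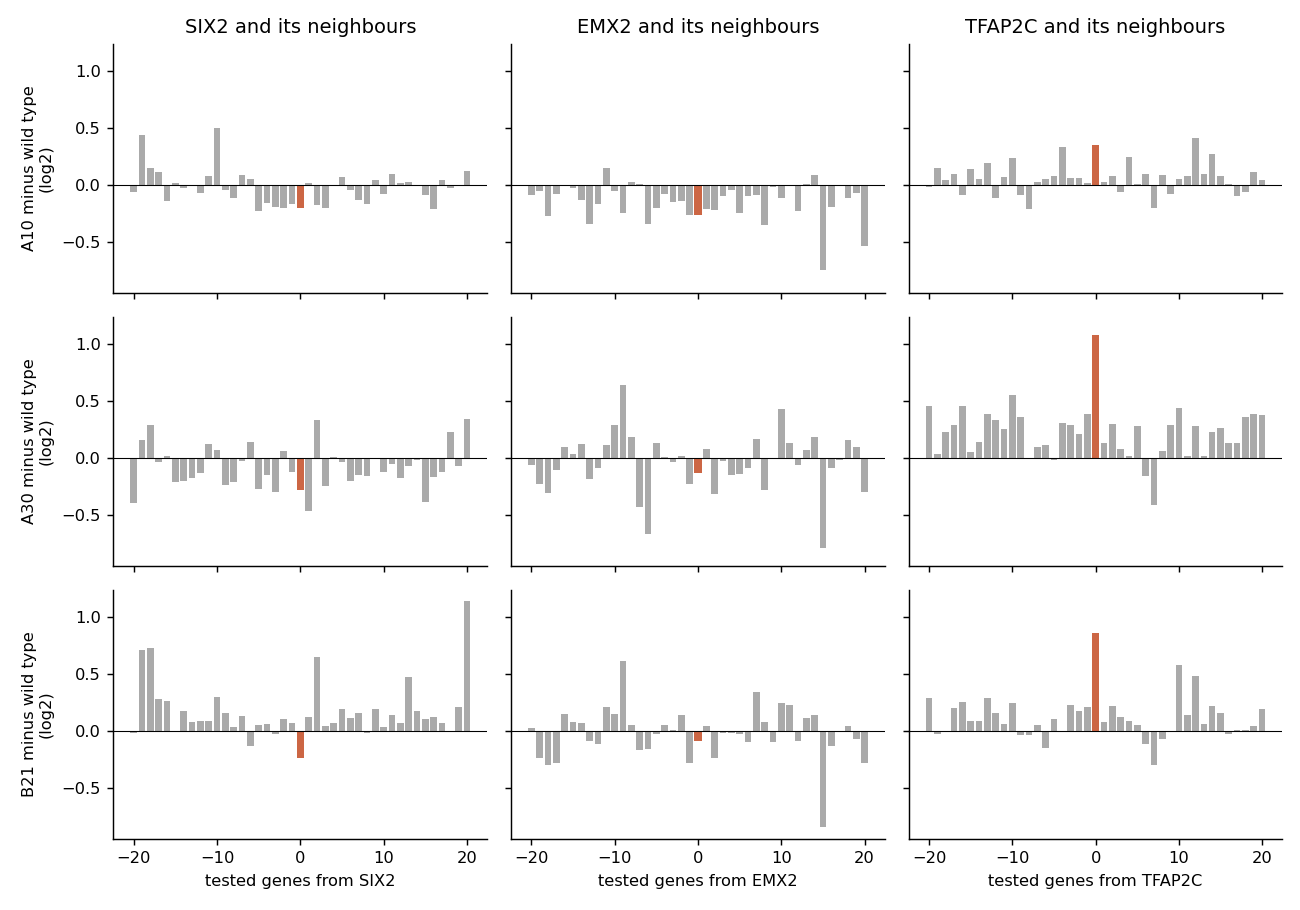
Difference from the wild-type lines (log2) in A10, A30 and B21 for SIX2, EMX2 and TFAP2C (red) and the 20 tested genes on each side (grey), by order along the chromosome. TFAP2C exceeds all 40 neighbours in A30 and B21, SIX2 lies below 0 in B21 where 35 of 40 neighbours lie above, and EMX2 in A10 lies among neighbours that are mostly below 0.

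**Figure D4:**
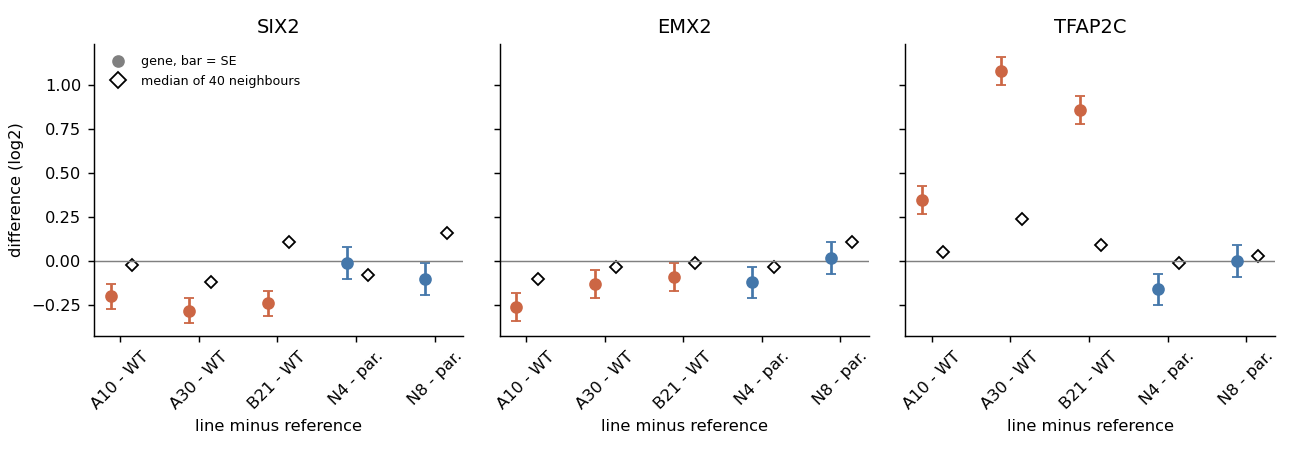
Differences (log2) of SIX2, EMX2 and TFAP2C in A10, A30 and B21 from the wild-type lines (WT) and in N4 and N8 from the parental cells (par.), as circles with limma SE bars, with diamonds for the median of the 40 neighbouring genes. TFAP2C in A30, at 1.08, is the difference farthest from 0 among those drawn, and its neighbours stand at 0.24.

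Over the 6 line means SIX2 and TFAP2C were correlated at r = −0.92, SIX2 and EMX2 at 0.61 and EMX2 and TFAP2C at −0.41. With the line means removed, the same values over 18 arrays were −0.14, −0.27 and 0.41. The points share their line, and for arrays of the same replicate number possibly other conditions, so these values only describe the data. The genes were also picked with differences between the lines known, so nothing is read from the values over line means.

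The genes whose signal was most like that of TFAP2C over the 18 arrays were UTRN (Pearson r = 0.951), which encodes utrophin, EDIL3 (0.931), TNC (0.930), VPS4B (0.928) and PDP1 (0.921). TNC and EDIL3 encode secreted matrix proteins. UTRN stood at 8.41, 8.24 and 8.28 in the parental cells, N4 and N8 and at 8.46, 8.89 and 8.80 in A10, A30 and B21, with the same order of the upper lines as TFAP2C. For SIX2 they were WDR82 (0.854), ATXN7L3B (0.791), ISL1 (0.789), CFD (0.789) and SLC33A2 (0.783). ISL1, a neural and endocrine homeobox gene, stood at 6.48, 6.73 and 6.25 in the wild-type lines in the same order and at 5.48, 5.03 and 5.52 in the lines labelled ATXN1L-KO. For EMX2 they were the pseudogene RPL13AP20 (0.813) and EBF3 (0.765), DCLRE1B (0.755), MXD4 (0.754) and ZNF704 (0.754). Of these lists of 5, 3 for SIX2, 2 for EMX2 and 1 for TFAP2C were also among the first 5 by Spearman's correlation. By correlation over the 6 line means, 0, 1 and 0 were among the first 5. The choice of most similar genes thus changed with the measure.

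Genes of the same families and tissues were drawn from 8 lists written from general knowledge, with earlier results of these data known. Their shares are therefore set beside those of all tested genes as a description only. Of 134 genes listed besides the 3, 102 had a symbol and 77 were tested. Between the genotype labels on line means, 0 of 77 passed, with a median difference of 0.00. An unadjusted p under 0.05 was found for 14 of the 77, a larger share than the 937 of all 9686 genes (9.67%). By single line, 8 of 77 (10.4%) passed in A10, 2 higher and 6 lower, against 8.40% of all tested genes, 3.84% higher and 4.56% lower. In A30 26 (33.8%) passed, 13 higher and 13 lower, against 29.3%, 12.9% higher and 16.3% lower. In B21 18 (23.4%) passed, 11 higher and 7 lower, against 16.0%, 8.82% higher and 7.20% lower. Among the 6 lines 45 (58.4%) passed limma's F test, against 43.5%. The A10 count was 14 without its replicate 1 but 1 without its replicate 2 or its replicate 3. In N4 0 of 77 passed (0.547% of all genes did) and 10 had an unadjusted p under 0.05, as had 1276 of all 9686, a like share. In N8 13 passed, 4 higher and 9 lower, against 14.7%, 7.67% higher and 7.03% lower. The medians of the listed genes were −0.03 (A10), 0.01 (A30) and 0.00 (B21), against −0.01, 0.01 and 0.01 over all tested genes. Replicate 1 differed from the other replicates in 16 of the 77, 8 higher and 8 lower, against 18.6% of all tested genes. These comparisons share arrays.

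The SIX2 protein works with EYA coactivators and DACH corepressors, and 9 of 12 listed genes of these families were tested. In A10 1 was lower (11.1%), in A30 2 (22.2%) and in B21 2 (22.2%). Of all tested genes 8.40%, 29.3% and 16.0% passed in these lines in either direction. In the wild-type clone N8 3 were lower than in the parental cells (33.3%, against 14.7% of all tested genes). EYA2 stood at 8.10, 8.17 and 8.17 in the parental cells, N4 and N8 and 8.22 in A10, and fell to 7.55 in A30 and 7.70 in B21, by 0.59 ± 0.06 (limma adjusted p = 4.51e-06) and 0.45 ± 0.06 (limma adjusted p = 0.000154). DACH1 fell by 0.45 ± 0.10 in A30 and 0.68 ± 0.10 in B21, but also by 0.73 ± 0.13 in the wild-type clone N8 against the parental cells (limma adjusted p = 0.00138). EYA1, the coactivator of nephron progenitors, fell in A10 by 0.59 ± 0.16 (limma adjusted p = 0.0289) and differed by 0.22 in A30 and −0.16 in B21. It was higher in replicate 1 than in the other replicates by 0.39 (limma adjusted p = 0.00198). EYA4 fell in N8 and passed in none of the lines labelled ATXN1L-KO.

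Of the 23 listed nephron progenitor genes 11 were tested. In A10 1, EYA1, fell, in A30 1 rose and 3 fell, and in B21 1 rose and 2 fell. Thus 9.09%, 36.4% and 27.3% of those tested passed, against 8.40%, 29.3% and 16.0% of all tested genes. HOXD11, a HOX gene of the metanephric mesenchyme, fell by 0.52 ± 0.07 in A30 (limma adjusted p = 4.53e-05) and 0.31 ± 0.07 in B21 (limma adjusted p = 0.00702) and differed by 0.05 in A10. OSR1, one of the first genes of kidney mesoderm, fell by 0.40 ± 0.09 in A30, and rose by 0.71 ± 0.11 in N8 against the parental cells. Its line means of 5.12 to 5.87 lay close to the filter value of 5.6. LYPD1 rose by 0.36 ± 0.09 in A30 and 0.63 ± 0.09 in B21. WT1 and PAX2, regulators of the same cells, passed in none of the comparisons between lines.

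Among the 9 tested genes of the early nephron, 3 rose and 1 fell in A30 and likewise in B21, and 1 rose and 1 fell in A10. That was 44.4% in A30 and in B21 and 22.2% in A10, where 29.3%, 16.0% and 8.40% of all tested genes passed. BMP2, a growth factor gene, rose by 1.09 ± 0.17 in A30 and 1.26 ± 0.17 in B21, and N8 lay above the parental cells by 0.75 ± 0.20 (limma adjusted p = 0.0194). JAG1, the Notch ligand gene, rose by 0.27 ± 0.08 (A10), 0.56 ± 0.08 (A30) and 0.41 ± 0.08 (B21; limma adjusted p = 0.0462, 8.42e-05 and 0.00225). POU3F3, a POU factor gene of the nephron and the brain, fell by 0.30 ± 0.08, 0.69 ± 0.08 and 0.42 ± 0.08 in the same lines (limma adjusted p = 0.022, 5.17e-06 and 0.00121).

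The ureteric bud, the tissue in which EMX2 acts, had 11 tested genes of 21 listed. In A10 1 rose and 1 fell, in A30 3 rose and 2 fell, and in B21 2 rose. These shares of 18.2%, 45.5% and 18.2% stand beside 8.40%, 29.3% and 16.0% of all tested genes. ETV5, a target of CIC named above, rose by 0.79 ± 0.18 (A10), 0.99 ± 0.18 (A30) and 1.01 ± 0.18 (B21), and differed by −0.45 in replicate 1 from the other replicates (limma adjusted p = 0.00327). Its line means of 4.96 to 5.23 in the wild-type lines lay below the filter value of 5.6. In the lines labelled ATXN1L-KO they were 5.85 to 6.06, so ETV5 passed the filter mainly through the lines where it was high. ETV4, the other target named, rose by 1.05 ± 0.22 in A30 and 1.01 ± 0.22 in B21. In A10 ETV4 differed by 0.46 ± 0.22 and did not pass (limma adjusted p = 0.22). The wild-type clone N8 differed from the parental cells in ETV4 by 0.62 ± 0.27 (limma adjusted p = 0.133). GFRA1, a coreceptor gene for GDNF, fell by 0.34 ± 0.10 in A10 and 0.67 ± 0.10 in A30, and SOX9 rose by 0.43 ± 0.07 in A30. Among 12 tested genes of the list of homeobox genes related to EMX2, which also holds EMX2OS, 0 passed in A10 and in B21. Of all tested genes 8.40% and 16.0% did. In A30 1 rose and 3 fell, 33.3% against 29.3% of all tested genes. MEIS3 rose in A30 by 0.95 ± 0.15, and MEIS2 and PBX2, both cofactor genes of homeobox proteins, fell by 0.47 ± 0.10 and 0.33 ± 0.07. The other EMX gene, EMX1, stood between 5.72 and 5.98 in the 6 lines and passed in none of the comparisons.

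Of the other AP-2 genes with a symbol, TFAP2B and TFAP2D did not pass the filter, and TFAP2E, between 5.57 and 5.85 in the 6 lines, passed in none of the comparisons. TFAP2A was listed but had no probe set with its symbol, so its level is not known here. Of 8 tested AP-2 genes and partners, 0 passed in A10, 1 rose and 2 fell in A30, and 1 rose and 1 fell in B21. The shares in A30 and B21, 37.5% and 25%, stand against 29.3% and 16.0% of all tested genes, with 8.40% in A10. EP300, a coactivator gene, rose by 0.32 ± 0.05 in A30 and 0.28 ± 0.05 in B21. YEATS4 fell by 0.24 ± 0.08 and 0.25 ± 0.08 in A30 and B21, and in N8 by 0.33 ± 0.10 against the parental cells. KCTD15, an inhibitor gene of AP-2 factors, passed the F test among the 6 lines (limma adjusted p = 0.0256), with its lowest level in A10, at 6.57.

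Of 21 listed epithelial genes with known links to AP-2 factors, 10 were tested. KRT7, EPCAM, ERBB3, ESR1, CLDN4, GRHL2 and ESRP1 did not pass the filter. In A30 1 of the 10 rose, in B21 3 rose, and in A10 1 fell, with medians of −0.05, 0.01 and −0.10. Of all tested genes 29.3%, 16.0% and 8.40% passed in these lines, in either direction. KRT19, a keratin gene of simple epithelia, stood at 6.66, 6.22 and 6.22 in the parental cells, N4 and N8, and at 6.05 in A10, 7.55 in A30 and 7.61 in B21. It rose by 1.18 ± 0.10 in A30 (limma adjusted p = 2.38e-07) and 1.24 ± 0.10 in B21 (limma adjusted p = 3.05e-07) and differed by −0.31 ± 0.10 in A10 (limma adjusted p = 0.0549), where TFAP2C differed by 0.35. GRHL1 rose in B21 by 0.46 ± 0.09, and CRABP2 fell in A10 by 0.85 ± 0.15. KRT18, which also rose in B21, by 0.71 ± 0.15, differed by −0.40 between replicate 1 and the other replicates (limma adjusted p = 0.000451).

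Of 20 listed germ cell and trophoblast genes 10 were tested, and in A30 3 rose, in B21 1 rose and 1 fell, and in A10 2 fell. The shares were 30%, 20% and 20%, against 29.3%, 16.0% and 8.40% of all tested genes. HAND1, a trophoblast and heart gene, differed in sign between the clones, at −0.35 ± 0.08 (A10), 0.21 ± 0.08 (A30) and −0.24 ± 0.08 (B21; limma adjusted p = 0.00869, 0.0498 and 0.039). KIT fell by 0.37 ± 0.10 in A10, and GATA2 passed the F test among the 6 lines with its lowest level in N4, at 6.35. The pluripotency genes NANOG and POU5F1 did not pass the filter.

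**Figure D5:**
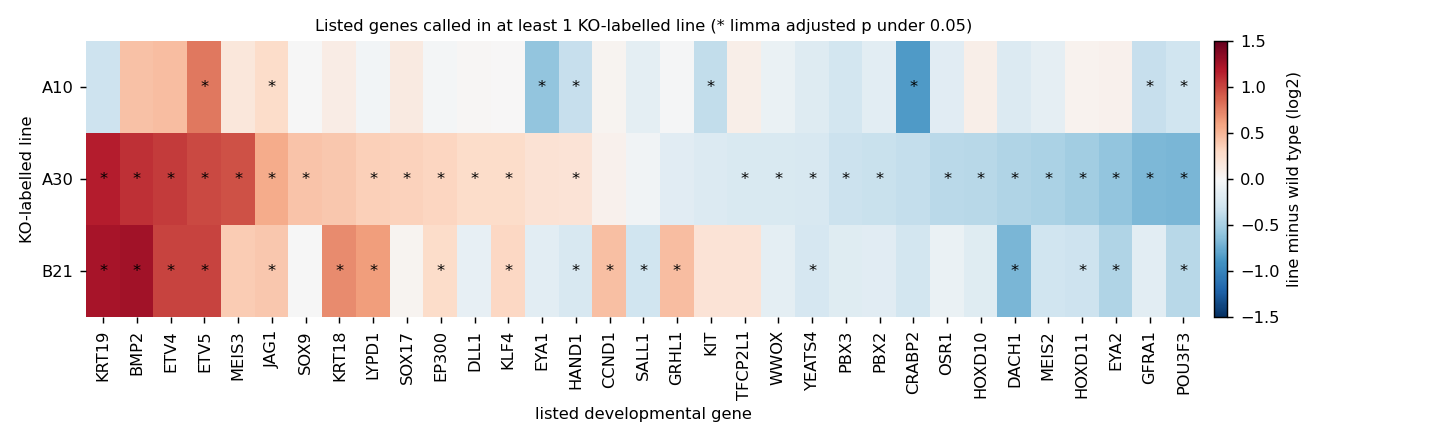
Difference from the wild-type lines (log2, colour) in A10, A30 and B21 for the 33 listed developmental genes that passed in at least 1 of these lines, ordered by A30, with an asterisk where limma's adjusted p was under 0.05. A30 has 26 asterisks, B21 18 and A10 8. These are 33.8%, 23.4% and 10.4% of the 77 tested, against 29.3%, 16.0% and 8.40% of all tested genes. The comparisons share the wild-type arrays.

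The kidney label was set against marker genes. The kidney transcription factor genes WT1, SALL1, EYA1, HOXD11 and LHX1 passed the filter, and PAX2 did so at line means of 5.43 to 5.78, around the filter value, while PAX8 did not. Nor did TMEM100, HOXC11, MEOX2, DAPL1, FGF8, GRHL2 and TFAP2B of the kidney lists. Of genes with a symbol, 11 of 15 nephron progenitor, 9 of 11 early nephron and 11 of 13 ureteric bud genes passed. Of 5 tubule markers with a symbol, LRP2 and AQP2 passed and CUBN, AQP1 and AQP3 did not. AQP2 did so at line means of 5.74 to 5.88, near the filter value of 5.6. Of 4 podocyte markers PODXL and SYNPO passed, and of 6 stroma markers FOXD1, TBX18, MEIS1 and LUM passed. Line means of SYNPO began at 5.54, and those of LUM, 4.90 to 5.95, exceeded the filter value in B21 alone. Of 3 leukocyte markers CD14 and LYZ did not pass and CD68 did. Of 4 adrenal markers STAR, MC2R and DLK1 did not pass, and FDX1, a mitochondrial gene of many tissues, did. Of 7 neuronal markers 5 passed, MAP2, SYP, UCHL1, POU3F2 and ISL1, while STMN2 and DCX did not. The mean of these 5 was 6.95 to 7.11 in the wild-type lines and 6.30 to 6.63 in the lines labelled ATXN1L-KO. This list was written with earlier results of these data known, so nothing is read from its mean. The list was split. POU3F2 and ISL1, genes for transcription factors, fell in A10, A30 and B21, and SYP differed by −0.03, 0.01 and −0.11 and passed in none. The line means of ISL1 in A10, A30 and B21, 5.48, 5.03 and 5.52, lay below the filter value of 5.6. ISL1 thus passed the filter mainly through the wild-type lines, where it was high. MAP2 and UCHL1 passed in A30 alone of these. MAP2 differed by −0.27, −1.01 and −0.42 and UCHL1 by −0.14, −0.46 and −0.07 in A10, A30 and B21. MAP2 was also higher in replicate 1 than in the other replicates by 0.37 (limma adjusted p = 0.006). The part of this list in the levels of SIX2, EMX2 and TFAP2C was not tested.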

How the data were processed

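Per the submitters' processing notes, the authors made the deposited values with Affymetrix Expression Console. The sources used here do not give its version, its settings or a genome build. The deposited log2 values, a scale read from their range of 0.57 to 14.84, had array medians of 5.09 to 5.18 and were used unchanged. A single gene symbol was given for 16098 of 53617 probe sets and none for 37519. The brightest probe set stood for a gene with several. Genes had to exceed 5.6, the value at the 40th percentile among named genes, on 3 arrays or more to be tested.

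The lines were compared with limma 3.58.1 in R 4.3.3, two-sided, with Benjamini-Hochberg adjustment over the 9686 tested genes. Line means served for the genotype labels, 3 against 3. Arrays served for single lines, where p-values cover only the spread between arrays of a line. The fits were tested on simulated data. SIX2, EMX2 and TFAP2C and the gene lists were chosen with earlier results of these data known. The genes named are these 3, the 5 most correlated with each, the nearest tested neighbours, and from each list up to 3 with the smallest p of the F test among the 6 lines. Other genes were named after their values were seen. Neighbours follow the order of RefSeq genes. Alternatives covered the filter, normalisation, probe sets, variance model, replicate number, neighbours and leaving out each array or line. Counts within replicates and against other references were added after the data were seen. The number of arrays limits the precision.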

Additional observations from a re-analysis of the deposited data

Results flagged for a closer look

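HAND1 moved in opposite directions in the clones labelled ATXN1L-KO, with every array of A30 above and every array of A10 and B21 below the mean of the wild-type lines. The A30 difference exceeded that of A10 by 0.56 and that of B21 by 0.45 (log2), and these gaps were not tested. LUM, a stroma marker that encodes the matrix protein lumican, was below that mean in every array of A30 and above it in every array of B21, with a gap of 1.04 that was not tested. The line mean of LUM exceeded the filter value of 5.6 in B21 alone, at 5.95, and was 4.90 in A30. LUM thus passed the filter mainly through the line where it was high.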

How the results depend on the processing

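Of the 3 genes, the differences of SIX2 and TFAP2C between the genotype labels kept their sign under every alternative run, at −0.27 to −0.21 and 0.60 to 0.97. That of EMX2 did too, but was −0.35 in replicate 1 alone and −0.07 in replicates 2 and 3 alone. Without replicate 1, EMX2 in B21 differed by 0.04 and TFAP2C in A10 by 0.47. With the neighbours' median subtracted, SIX2 differed by −0.35 in B21 and −0.29 in N8, EMX2 by −0.12 in A10 and TFAP2C by 0.87 in A30. The differences between replicate 1 and the other replicates changed sign as single arrays were left out, within −0.044 to 0.010 for SIX2, −0.055 to 0.033 for EMX2 and −0.039 to 0.045 for TFAP2C. With the brighter filter SIX2 was not tested.

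Same-numbered arrays deviated together (r over 0.1) in 15 of 15 pairs of lines for replicate 1, 14 for replicate 2 and 10 for replicate 3. The numbers thus share something in part, but were not taken as pairs, which needed every pair over 0.1. With the replicate number as a block the differences of the 3 genes were the same, −0.24, −0.16 and 0.76 between the genotype labels. The count of developmental genes that passed was then 1 (ETV5) instead of 0 between the genotype labels, 13 instead of 8 in A10, 30 instead of 18 in B21 and 2 instead of 0 in N4. Counts over all tested genes rose as well, to 43 instead of 0 between the genotype labels and 1379 instead of 814 in A10. In B21 they rose to 2210 instead of 1551 and in N4 to 168 instead of 53.

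Between the genotype labels the count of developmental genes was 3 when each line was a random block (ETV5, JAG1 and POU3F3). It was 1 without N8 (ETV5), 3 without A10 (ETV4, ETV5 and KRT19) and 0 to 1 with an array left out. Of all tested genes, 75 passed with the random block, 5 without N8, 72 without A10 and 0 to 5 with an array left out. In A10 the developmental count was 5 with no filter, 4 with neighbours subtracted and 17 in replicates 2 and 3. It was 13 with N8 left out of the reference and 1 to 14 with an array left out. Counts over all genes were 510, 356, 1461, 888 and 327 to 1142 in that order, against 814 in the main fit. In N4 the developmental count was 2 in replicates 2 and 3 and 0 to 2 with an array left out. All genes gave 56 and 9 to 116 there, against 53. In N8 the developmental count was 5 with neighbours subtracted and 8 to 16 with an array left out. All genes gave 550 and 876 to 1688 there, against 1424. Between replicate 1 and the other replicates the developmental count was 10 with no filter and 10 to 19 with an array left out. All genes gave 1358 and 1112 to 2065 there, against 1800. The causes were not tested.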
